A study of Homo sapiens with 15 samples.

Results

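In senescent IMR90 fibroblasts, the 3 libraries labelled shTHBD set 1 were compared directly with the 3 libraries labelled shTHBD set 2, on the raw counts of all genes and with no control library in the contrast. These 6 libraries were chosen by their titles from the 15 of the series. IMR90 is a fibroblast line from human lung, and all libraries used here come from cells that the treatment label describes as driven into senescence by oncogenic HRAS G12V. The groups used here are shTHBD set 1 (n = 3), shTHBD set 2 (n = 3) and, for levels only, a control with a non-targeting short hairpin RNA (n = 3), which carries the same oncogene. A short hairpin RNA is processed inside the cell into a small RNA that directs the breakdown of matching transcripts, and these hairpins are meant to lower THBD. The labels do not say whether the set number marks another hairpin, another culture or another day, so what differs between the sets cannot be told apart. Nor do they say whether the replicates came from different cultures. The p-values therefore measure only the spread between these libraries, which may be technical. The growth protocol also describes senescence by long passage, and the description of set 2 replicate 3 names Huh7, a liver cancer line, while its other labels name IMR-90.

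The 6 libraries held between 18256773 and 20444521 counts, and those of the control held between 18682662 and 21509229 counts. Levels are given as CPM, counts scaled to a common library size, as mean ± SD over n = 3 libraries unless each library is given, and differences as log2(set 1) minus log2(set 2) ± SE. Mitochondrially encoded genes took 4.98% ± 0.0528 of counts in the libraries labelled set 1, 5.43% ± 0.0802 in set 2 and 4.74% ± 0.0383 in the control. The sets did not overlap in this share (exact permutation test, two-sided p = 0.1, the smallest p that 3 against 3 libraries allow), and its part in the results was not tested. Set 2 replicate 3 resembled the other set 2 libraries. It held 0 counts of ALB and 60 of AFP, genes of hepatocytes and hepatoma cells. The other set 2 libraries held 58 and 77 of AFP. Huh7 libraries of the series held between 351 and 784 counts of ALB and between 10881 and 13752 of AFP. AFP had 10, 24 and 15 counts in the libraries labelled set 1 and 5, 9 and 4 in the control. It was thus highest in all set 2 libraries, and the reason was not tested. The level of COL1A2, a collagen chain of fibroblasts, was 3332 CPM in set 2 replicate 3, against 3361 and 3362 CPM in the other set 2 libraries. Huh7 libraries, scaled on library totals, had 186 to 422 CPM of COL1A2. They had 4.04 to 10.8 CPM of COL3A1, another collagen chain, against 640 CPM in set 2 replicate 3. Fibroblast markers were high in all 3 groups. Their summed level over 13 genes ran from 5194 to 5311 CPM in the libraries labelled set 1, from 12443 to 12563 CPM in set 2 and from 6780 to 6849 CPM in the control, with no marker at 0. In RNA of whole cultures, fewer cells of a type and less RNA per cell cannot be told apart.

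THBD encodes thrombomodulin, a membrane protein that binds thrombin and turns it from a clotting enzyme into an activator of protein C. Senescent cells have left the cell cycle for good and stay metabolically active, and many of them secrete cytokines, chemokines, proteases and growth factors, together called the senescence-associated secretory phenotype. In fibroblasts with oncogenic RAS this secretion is known to depend on interleukin-1 signalling and on the transcription factors NF-kB and C/EBP beta, while inhibitors of cyclin-dependent kinases hold the cells in arrest.

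The gene that the hairpins are meant to lower was measured first because it checks the labels. It lies on chromosome 20 (chr20:23045633-23049672, minus strand, GRCh38), and no exon of another counted gene overlaps it. Its counts were 719, 732 and 763 in the libraries labelled set 1, against 199, 220 and 209 in set 2, with 315, 351 and 430 in the control. These are 41.1, 38.2 and 39.1 CPM in the libraries labelled set 1, against 9.92, 10.9 and 10.8 CPM in set 2, with 16.6, 18.9 and 20.1 CPM in the control. Every library labelled set 1 stood above every control library, against its label, and every set 2 library stood below. Between the sets THBD differed 3.78-fold (log2 difference 1.92 ± 0.0818, adjusted p = 2.9e-32; edgeR quasi-likelihood test with Benjamini-Hochberg adjustment, as for all adjusted p-values here). Differences below are therefore between libraries named by their labels, and the libraries labelled set 1 are not cells with lowered THBD transcript.

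The sets differed in most of the genes that could be tested. Of 59428 genes in the table, 14984 passed the filter on low counts and 10509 of these (70.1%) passed an adjusted p of 0.05. They divided evenly, with 5261 (35.1% of those tested) higher in the libraries labelled set 1 and 5248 (35%) lower there. With library totals as the only scaling the split was 4164 higher and 6602 lower, and with upper-quartile scaling 4511 higher and 6194 lower. The median difference over all tested genes was −0.01, against −0.17 and −0.12 under those scalings, so small differences depend on the scaling. Of the called genes, 4715 differed by less than 1.5-fold. A difference of at least 2-fold was called for 1643 genes that were higher and 1492 that were lower in the libraries labelled set 1, together 20.9% of those tested. At 4-fold these numbers were 443 and 342, and at 10-fold 110 and 47. The libraries of the sets did not overlap in 10794 genes (72%). The common biological coefficient of variation between replicates was 3.38%. The control lay between the sets for 741 of the 1643 genes at least 2-fold higher and for 553 of the 1492 at least 2-fold lower. Its libraries overlapped a set in 661 and 837, lay above both sets in 222 and 27 and below both in 19 and 75. Of all called genes, the control lay between for 1547 of the 5261 higher and 1269 of the 5248 lower. Only genes whose sets did not overlap could count as between.

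**Figure D1:**
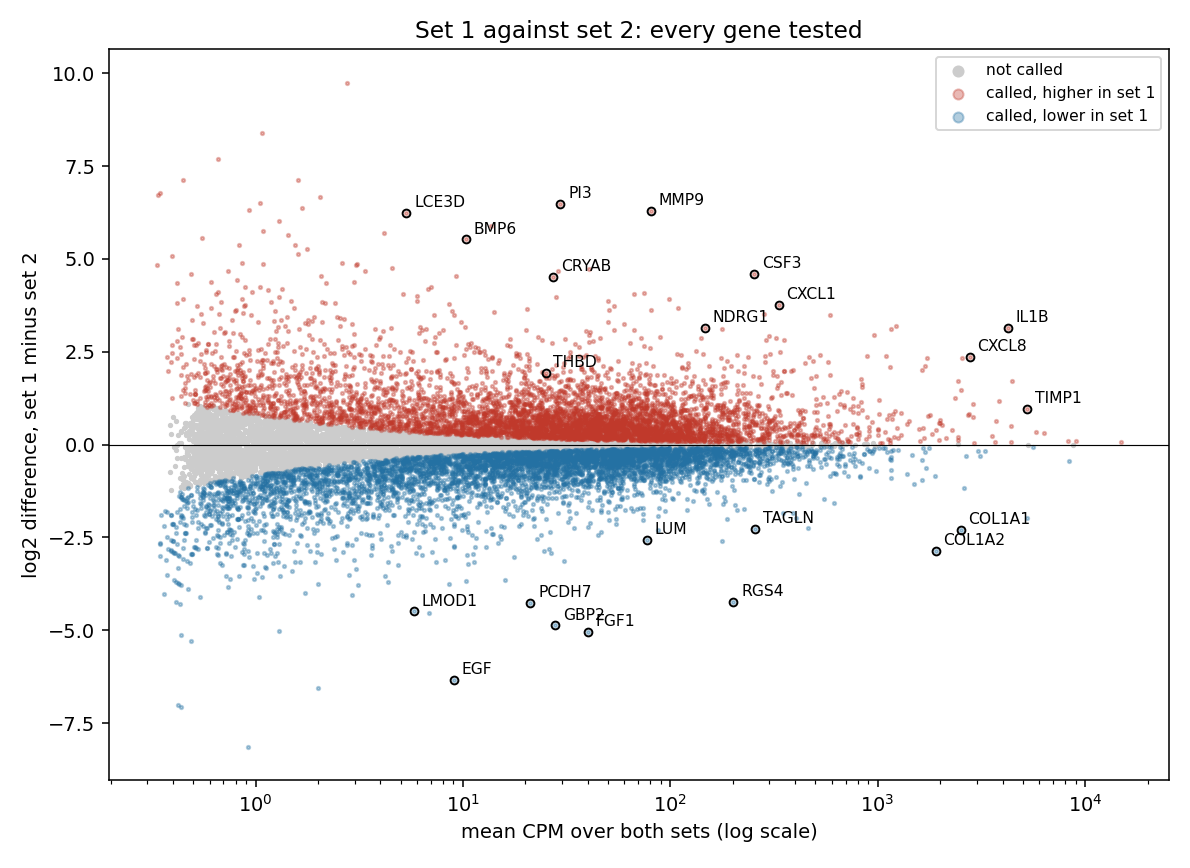
Log2 difference (set 1 minus set 2) of each of the 14984 tested genes against its mean CPM over both sets (log scale), with red and blue points for the 5261 genes called higher and the 5248 called lower and grey for those not called. Named genes are circled: PI3, MMP9 and LCE3D stand at the top, EGF, FGF1 and GBP2 at the bottom, and IL1B, CXCL8 and COL1A1 at the right, among the most abundant transcripts.

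The largest differences upward in the libraries labelled set 1 were in PI3, MMP9 and LCE3D. This ranking covers called genes with a gene symbol, at least 10 CPM in the higher set and libraries that did not overlap. Genes with clone-based or LINC names were left out of it. PI3, which encodes the elastase inhibitor elafin, had 58, 59.5 and 57.6 CPM in the libraries labelled set 1, against 0.449, 0.647 and 0.88 CPM in set 2 (log2 difference 6.48 ± 0.127, adjusted p = 2.9e-52). MMP9, a gelatinase that cleaves basement membrane collagen, had 163, 156 and 159 CPM in the libraries labelled set 1, against 1.7, 2.59 and 1.81 CPM in set 2 (log2 difference 6.30 ± 0.0784, adjusted p = 1.5e-64). In the control, MMP9 had 10.5, 11.8 and 10.6 CPM. No library of set 2 came near the lowest library labelled set 1 for either gene, and MMP9 was also higher in the libraries labelled set 1 than in the control. LCE3D, a late cornified envelope gene of skin, stood at 10.5 ± 0.427 CPM in the libraries labelled set 1, against 0.135 ± 0.0796 CPM in set 2 (6.24 ± 0.28). BMP6, a bone morphogenetic protein, stood at 20.2 ± 0.536 CPM in the libraries labelled set 1, against 0.438 ± 0.0352 CPM in set 2 (5.52 ± 0.182). CSF3, which encodes the granulocyte growth factor G-CSF, had 473, 492 and 491 CPM in the libraries labelled set 1, against 21.4, 19.9 and 19.6 CPM in set 2 (log2 difference 4.60 ± 0.0407, adjusted p = 1.4e-73). In the control, CSF3 had 336, 322 and 326 CPM. The remaining 5 of the 10 largest were CCL3L1, a chemokine gene (5.88 ± 0.189), MEDAG, an adipogenesis gene (4.72 ± 0.0887), G0S2, an inhibitor of fat breakdown (4.67 ± 0.117), CD93, a receptor of endothelial and myeloid cells (4.53 ± 0.173), and CRYAB, a small heat shock protein (4.50 ± 0.106). CCL3L1 is nearly identical to CCL3 and its count is uncertain, and BMP6 overlaps TXNDC5 on the opposite strand.

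By the same rule, the largest differences downward were in EGF, FGF1 and GBP2. EGF, the epidermal growth factor gene on chromosome 4 (chr4:109912883-110013766, plus strand, GRCh38), had 0.172, 0.417 and 0.0513 CPM in the libraries labelled set 1, against 18.5, 18.1 and 17.1 CPM in set 2 (log2 difference −6.33 ± 0.227, adjusted p = 1.4e-36). In the control, EGF had 0.844, 0.269 and 1.54 CPM. Behind these levels were 3, 8 and 1 counts in the libraries labelled set 1, against 371, 363 and 331 in set 2, so EGF was hardly detected in any group but set 2. FGF1, acidic fibroblast growth factor, had 1.66, 1.83 and 3.44 CPM in the libraries labelled set 1, against 76.8, 77 and 79.6 CPM in set 2 (log2 difference −5.04 ± 0.101, adjusted p = 1.1e-51). In the control, FGF1 had 3.59, 3.12 and 2.81 CPM. GBP2, an interferon-induced guanylate-binding protein, had 1.83, 1.98 and 1.64 CPM in the libraries labelled set 1, against 53.3, 53.8 and 55.1 CPM in set 2 (log2 difference −4.87 ± 0.107, adjusted p = 2.6e-49). In the control, GBP2 had 6.49, 7.43 and 5.76 CPM. In both, the control libraries lay far below set 2; for FGF1 they lay near those labelled set 1, and for GBP2 they stood above them. RGS4, which shortens signals of G protein-coupled receptors, was the most abundant of the 10, with 19.5, 19.9 and 20.9 CPM in the libraries labelled set 1, against 374, 392.2 and 382 CPM in set 2 (log2 difference −4.23 ± 0.0424, adjusted p = 2.4e-70). In the control, RGS4 had 15, 15.7 and 16.7 CPM. PCDH7, a protocadherin, stood at 2.05 ± 0.54 CPM in the libraries labelled set 1, against 40.2 ± 1.58 CPM in set 2 (−4.26 ± 0.118). In the control, PCDH7 stood at 1.71 ± 0.0721 CPM. LMOD1, leiomodin of smooth muscle (−4.49 ± 0.22), IRAG1, a partner of cGMP-dependent kinase (−4.54 ± 0.204), COL11A1, a fibrillar collagen (−3.75 ± 0.165), TMEM35A (−3.67 ± 0.153) and LRRN3 (−3.64 ± 0.133) completed the 10.

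In absolute level the sets lay far apart in interleukin-1 beta, stanniocalcin and collagen. IL1B gained most, at 7609 ± 66.9 CPM in the libraries labelled set 1, against 870.4 ± 6.41 CPM in set 2. STC1, a secreted glycoprotein hormone, stood at 6827 ± 54.6 CPM in the libraries labelled set 1, against 2094 ± 46.9 CPM in set 2. CXCL8, a neutrophil chemokine, TFPI2, an inhibitor of trypsin-like proteases, TIMP1, an inhibitor of metalloproteinases, and MMP1, a collagenase, were the other 4 of the 6 largest gains. TIMP1 had 6715, 6917 and 7039.8 CPM in the libraries labelled set 1, against 3544, 3662 and 3586 CPM in set 2, a smaller fold (0.95 ± 0.0181) at a high level. Among the largest losses in level were COL1A1 and COL1A2, the chains of type I collagen, which are given with the other collagens below. Others were FN1 (fibronectin, −0.44 ± 0.0166), CTSB (the lysosomal protease cathepsin B, −1.17 ± 0.0192) and MEG3, a long non-coding RNA (−0.85 ± 0.0202).

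**Figure D2:**
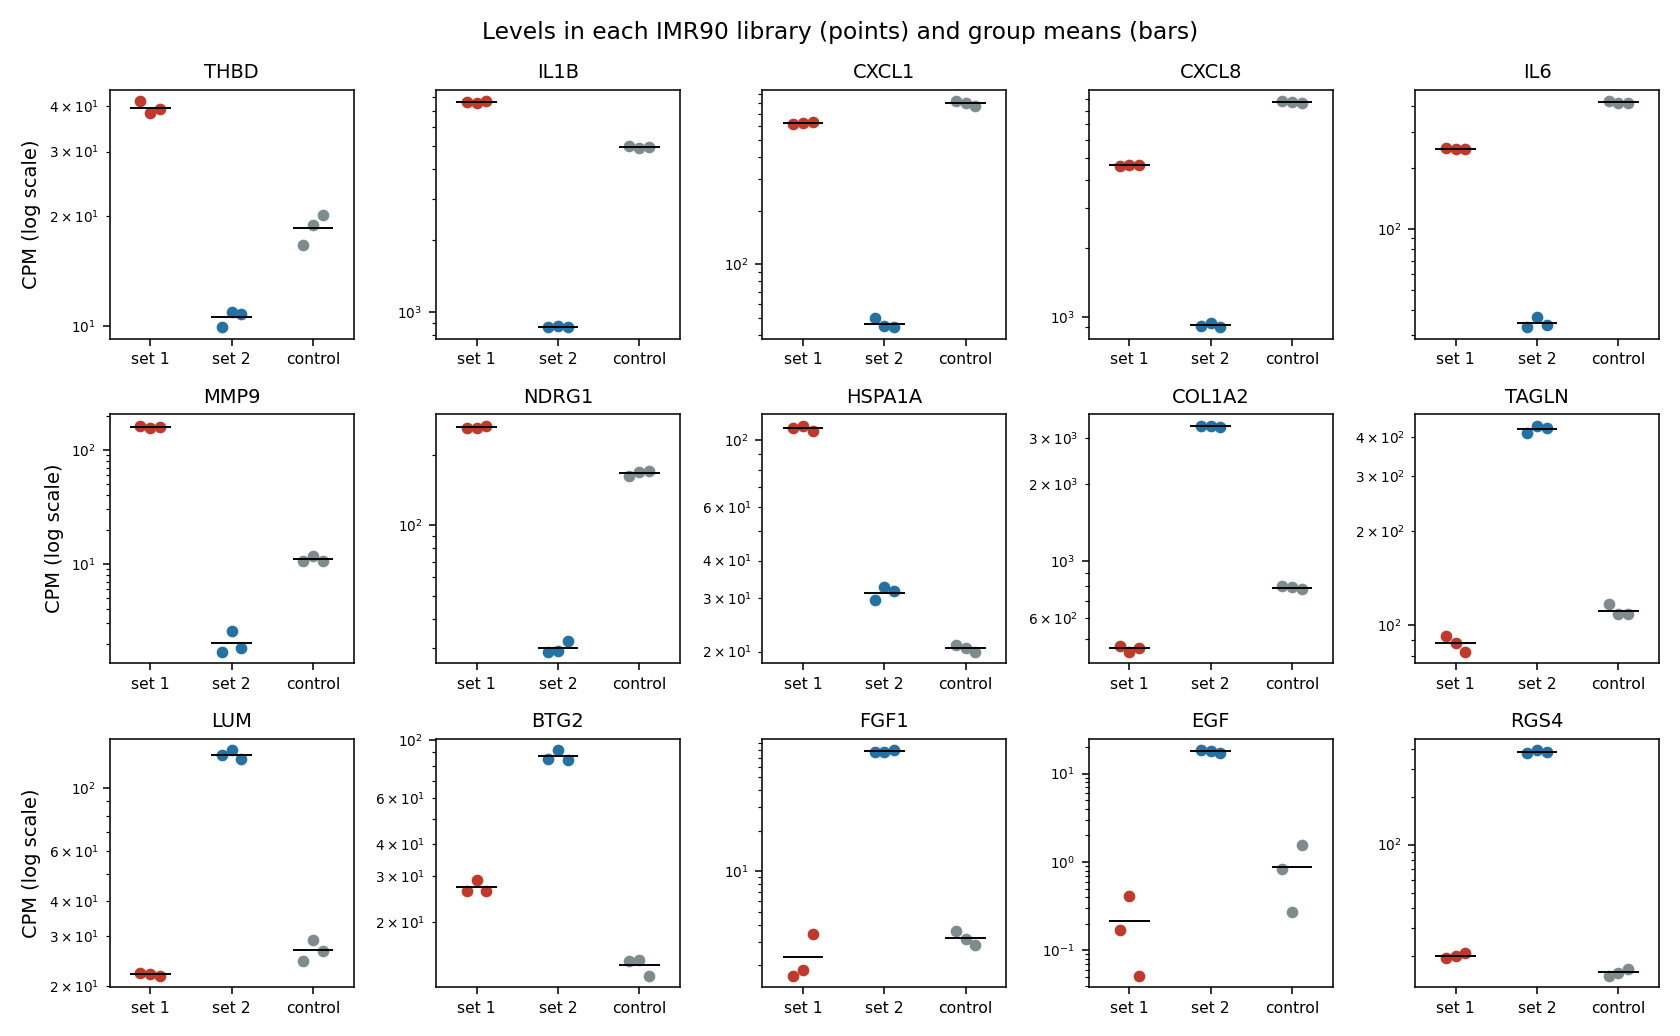
CPM (log scale, a scale of its own in each panel) of 15 genes in every IMR90 library, with set 1, set 2 and the control from left to right, 1 point per library and a bar for the mean of 3. The upper 8 genes (THBD to HSPA1A) are higher in set 1 than in set 2 and the other 7 (COL1A2 to RGS4) lower, with no overlap between the sets in any panel.

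In 50 gene lists written from general knowledge of these pathways, 900 of 1031 different genes were tested. Of these, 464 were higher in the libraries labelled set 1 and 297 were lower, and some genes stand in more than 1 list. The lists and their members were chosen with earlier results of these data known. The shares over all genes, 35.1% higher and 35% lower, are therefore the scale for every list count below and not a test. A list with counts near these shares does not stand apart from all genes. Genes of interleukin-1 signalling were mostly higher in the libraries labelled set 1. Over the interleukin-1 family, 7 of the 13 tested (18 listed) were higher in the libraries labelled set 1 and 2 were lower (median log2 difference 0.97), against 35.1% higher and 35% lower of all genes and a median of −0.01. IL1B lies on chromosome 2 (chr2:112829751-112836816, minus strand, GRCh38) and had 7622, 7537 and 7669 CPM in the libraries labelled set 1, against 871, 876 and 864 CPM in set 2 (log2 difference 3.14 ± 0.0193, adjusted p = 4.1e-83). In the control, IL1B had 4978, 4906 and 4926 CPM. IL1A, the other agonist of the same receptor, had 488, 519 and 502 CPM in the libraries labelled set 1, against 76, 68.4 and 73 CPM in set 2 (log2 difference 2.81 ± 0.0345, adjusted p = 6.6e-65). In the control, IL1A had 483, 459.6 and 450.0 CPM. Both were lowest in set 2 by a wide margin. For both the libraries labelled set 1 also stood above the control, by little for IL1A. IL33, an alarmin, was higher as well (2.48 ± 0.12), as were the co-receptor IL1RAP (1.81 ± 0.111) and the kinases IRAK1 (1.05 ± 0.031) and IRAK2 (0.97 ± 0.0531). The receptor IL1R1 was lower (−0.58 ± 0.0573), and so was CASP1, the protease that activates interleukin-1 beta, at 3.32 ± 0.245 CPM in the libraries labelled set 1, against 14.8 ± 1.41 CPM in set 2 (−2.14 ± 0.134).

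The chemokines that attract neutrophils through the receptor CXCR2 were higher in the libraries labelled set 1, as IL1B was. Of the CXC chemokines, 9 of the 10 tested (14 listed) were higher in the libraries labelled set 1 and 0 were lower (median log2 difference 2.65). CXCL1 had 610.1, 624 and 625 CPM in the libraries labelled set 1, against 49.8, 45.1 and 44.1 CPM in set 2 (log2 difference 3.76 ± 0.0354, adjusted p = 4.8e-72). In the control, CXCL1 had 821, 808 and 777 CPM. CXCL8 had 4611, 4653 and 4662 CPM in the libraries labelled set 1, against 913, 942 and 899.7 CPM in set 2 (log2 difference 2.35 ± 0.0203, adjusted p = 3.2e-74). In the control, CXCL8 had 8827, 8759 and 8695 CPM. Set 2 was lowest for both, and the control was highest. CXCL2 (3.68 ± 0.052), CXCL3 (3.52 ± 0.0361) and CXCL5 (2.94 ± 0.0254) differed by similar amounts; CXCL6 differed little between the sets (0.55 ± 0.135), with 8.57 ± 0.187 CPM in the libraries labelled set 1, against 5.92 ± 0.634 CPM in set 2, with 47.2 ± 1.4 CPM in the control. CXCL1, CXCL2 and CXCL3 are close copies, so their counts are uncertain. The promoters of these genes are shown because the genes moved together and share a short word: the capitals mark GGAATTTCC, a form of the NF-kB binding sequence, searched on both strands. The windows run from 250 bases before to 50 bases after each gene's start, 5′ to 3′ along the gene (RefSeq, GRCh38.p14).
CXCL1 (chr4:73869143-73869442, plus strand): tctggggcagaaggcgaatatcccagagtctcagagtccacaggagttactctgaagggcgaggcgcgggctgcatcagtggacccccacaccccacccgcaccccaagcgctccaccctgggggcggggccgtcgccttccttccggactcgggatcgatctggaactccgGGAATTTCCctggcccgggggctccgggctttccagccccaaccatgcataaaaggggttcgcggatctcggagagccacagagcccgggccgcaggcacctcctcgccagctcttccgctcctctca
CXCL2 (chr4:74099146-74099445, minus strand): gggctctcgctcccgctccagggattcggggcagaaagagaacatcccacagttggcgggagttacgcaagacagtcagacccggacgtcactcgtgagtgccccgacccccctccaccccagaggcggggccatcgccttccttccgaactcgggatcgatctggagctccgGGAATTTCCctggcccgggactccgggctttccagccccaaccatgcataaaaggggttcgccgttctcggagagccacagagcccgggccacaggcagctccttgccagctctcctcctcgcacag
CXCL3 (chr4:74038640-74038939, minus strand): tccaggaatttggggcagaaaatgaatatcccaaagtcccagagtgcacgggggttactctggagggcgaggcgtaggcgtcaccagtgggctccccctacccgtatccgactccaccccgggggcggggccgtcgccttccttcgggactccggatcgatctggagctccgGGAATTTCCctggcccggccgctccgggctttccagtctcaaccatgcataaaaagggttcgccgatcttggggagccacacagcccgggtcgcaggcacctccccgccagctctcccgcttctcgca
CXCL5 (chr4:73998628-73998927, minus strand): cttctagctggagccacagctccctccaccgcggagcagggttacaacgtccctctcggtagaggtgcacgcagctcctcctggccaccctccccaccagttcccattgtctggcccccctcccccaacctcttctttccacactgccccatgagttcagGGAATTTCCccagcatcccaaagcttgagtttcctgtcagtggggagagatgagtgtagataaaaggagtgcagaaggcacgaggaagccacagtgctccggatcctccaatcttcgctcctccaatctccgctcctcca
CXCL8 (chr4:73740319-73740618, plus strand): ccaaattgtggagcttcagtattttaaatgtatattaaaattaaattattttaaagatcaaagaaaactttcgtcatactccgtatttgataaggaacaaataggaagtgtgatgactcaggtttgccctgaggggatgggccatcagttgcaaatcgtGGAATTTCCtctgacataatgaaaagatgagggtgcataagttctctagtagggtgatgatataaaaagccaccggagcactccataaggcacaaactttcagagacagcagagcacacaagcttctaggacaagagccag
The word begins 78, 77, 78, 90 and 91 bases before the start of CXCL1, CXCL2, CXCL3, CXCL5 and CXCL8. It occurred in 7 of the 9 tested CXC chemokines that have a window (these 5, CXCL6 and CXCL10), against 0.636% of the 10849 tested genes with a window and 0.56% of all 27305 genes with one. The windows of the close copies CXCL1, CXCL2 and CXCL3 are alike around the word, so their matches are not separate occurrences. The word was held by 1.41% (16 of 1138) of the genes called at least 2-fold higher in the libraries labelled set 1. Among those called at least 2-fold lower there, 0.624% (6 of 962) held it. The 16 include the 5 genes shown, which were picked as higher genes with the word, so the first share is not separate from them. A match describes the letters in the window; whether a factor binds there was not measured, and CXCL6 and CXCL10, which differed less (log2 differences 0.55 and 0.99), hold the same word.

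Cytokines and receptors of the IL-6 family and the colony-stimulating factors followed the same direction. Among them, 13 of the 17 tested (19 listed) were higher in the libraries labelled set 1 and 4 were lower (median log2 difference 0.83). IL6 had 249, 247 and 247 CPM in the libraries labelled set 1, against 32.9, 37 and 33.9 CPM in set 2 (log2 difference 2.86 ± 0.042, adjusted p = 4.4e-60). In the control, IL6 had 423, 415 and 417 CPM. IL11, a cytokine of stromal cells, had 1089.8, 1065 and 1092 CPM in the libraries labelled set 1, against 96.4, 97.3 and 98.6 CPM in set 2 (log2 difference 3.49 ± 0.0285, adjusted p = 1.3e-75). In the control, IL11 had 811, 799.7 and 809 CPM. The libraries of the sets were far apart in both, with the control above the libraries labelled set 1 for IL6 and below them for IL11. CSF2, which encodes GM-CSF, stood at 80.1 ± 0.646 CPM in the libraries labelled set 1, against 11 ± 0.936 CPM in set 2 (2.88 ± 0.0675). LIF (1.40 ± 0.0245), CLCF1 (1.84 ± 0.0829) and the feedback inhibitor SOCS3 (1.74 ± 0.0382) were higher too. The shared receptor chain IL6ST (0.55 ± 0.0258) and the transcription factor STAT3 (0.26 ± 0.0336) differed less. Lower were LIFR (−0.39 ± 0.0652), CTF1 (−1.07 ± 0.17), IL11RA (−1.15 ± 0.117) and IL15 (−1.49 ± 0.198). IL6 overlaps STEAP1B on the opposite strand.

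The CC chemokines divided. CCL20, which attracts cells with the receptor CCR6, had 119, 133 and 127 CPM in the libraries labelled set 1, against 7.28, 7.27 and 8.75 CPM in set 2 (log2 difference 4.04 ± 0.0665, adjusted p = 4.5e-57). In the control, CCL20 had 129.7, 125 and 128 CPM. CCL3 stood at 37.6 ± 1.3 CPM in the libraries labelled set 1, against 3.03 ± 0.643 CPM in set 2 (3.65 ± 0.11) and, like its copy CCL3L1, has an uncertain count. The monocyte chemokine CCL2 went the other way, with 36, 34.7 and 36.5 CPM in the libraries labelled set 1, against 66.7, 68.4 and 67.5 CPM in set 2, with 148, 133 and 139 CPM in the control (log2 difference −0.90 ± 0.0547, adjusted p = 4.8e-24), and so did CCL7 (−0.71 ± 0.117) and CCL26. All 5 tested genes of the 11 listed were called, 2 higher and 3 lower; their median, −0.71, turned positive under both other filters on low counts (0.94 and 1.44) and when certain libraries were left out, since it is the middle of 5 genes.

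Genes of NF-kB itself and of its feedback loop were mostly higher in the libraries labelled set 1: 13 of the 17 tested (17 listed) were higher in the libraries labelled set 1 and 1 was lower (median log2 difference 0.98). TRAF1, an adaptor of TNF receptors, stood at 31.2 ± 3.12 CPM in the libraries labelled set 1, against 10.5 ± 0.438 CPM in set 2 (1.59 ± 0.0894). The inhibitors NFKBIE (1.54 ± 0.0664) and NFKBIA (0.99 ± 0.0469), the subunits NFKB1 (1.17 ± 0.0555), RELB (0.98 ± 0.0565) and RELA (0.37 ± 0.0387) and the ubiquitin ligase BIRC3 (1.22 ± 0.111) were higher. NFKB2 and BCL3 did not pass (0.05 ± 0.0406 and −0.07 ± 0.0757), and the deubiquitinase CYLD was slightly lower (−0.17 ± 0.0562). In the TNF superfamily, 15 of the 18 tested (24 listed) were higher in the libraries labelled set 1 and 2 were lower (median log2 difference 0.62). TNFSF15, a ligand that activates T cells, had 2193, 2225 and 2206 CPM in the libraries labelled set 1, against 248, 251 and 233 CPM in set 2 (log2 difference 3.20 ± 0.0251, adjusted p = 1.4e-76). In the control, TNFSF15 had 1284, 1300.3 and 1322 CPM. TNFRSF11B, the decoy receptor osteoprotegerin, stood at 70.1 ± 2.22 CPM in the libraries labelled set 1, against 8.48 ± 0.498 CPM in set 2 (3.06 ± 0.0734), and TNFRSF1B at 180.3 ± 7.84 CPM in the libraries labelled set 1, against 33.9 ± 1.67 CPM in set 2 (2.43 ± 0.0456). In the control TNFRSF11B stood at 71.5 ± 0.994 CPM, close to the libraries labelled set 1, and TNFRSF1B at 136 ± 1.11 CPM, between the sets.

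**Figure D3:**
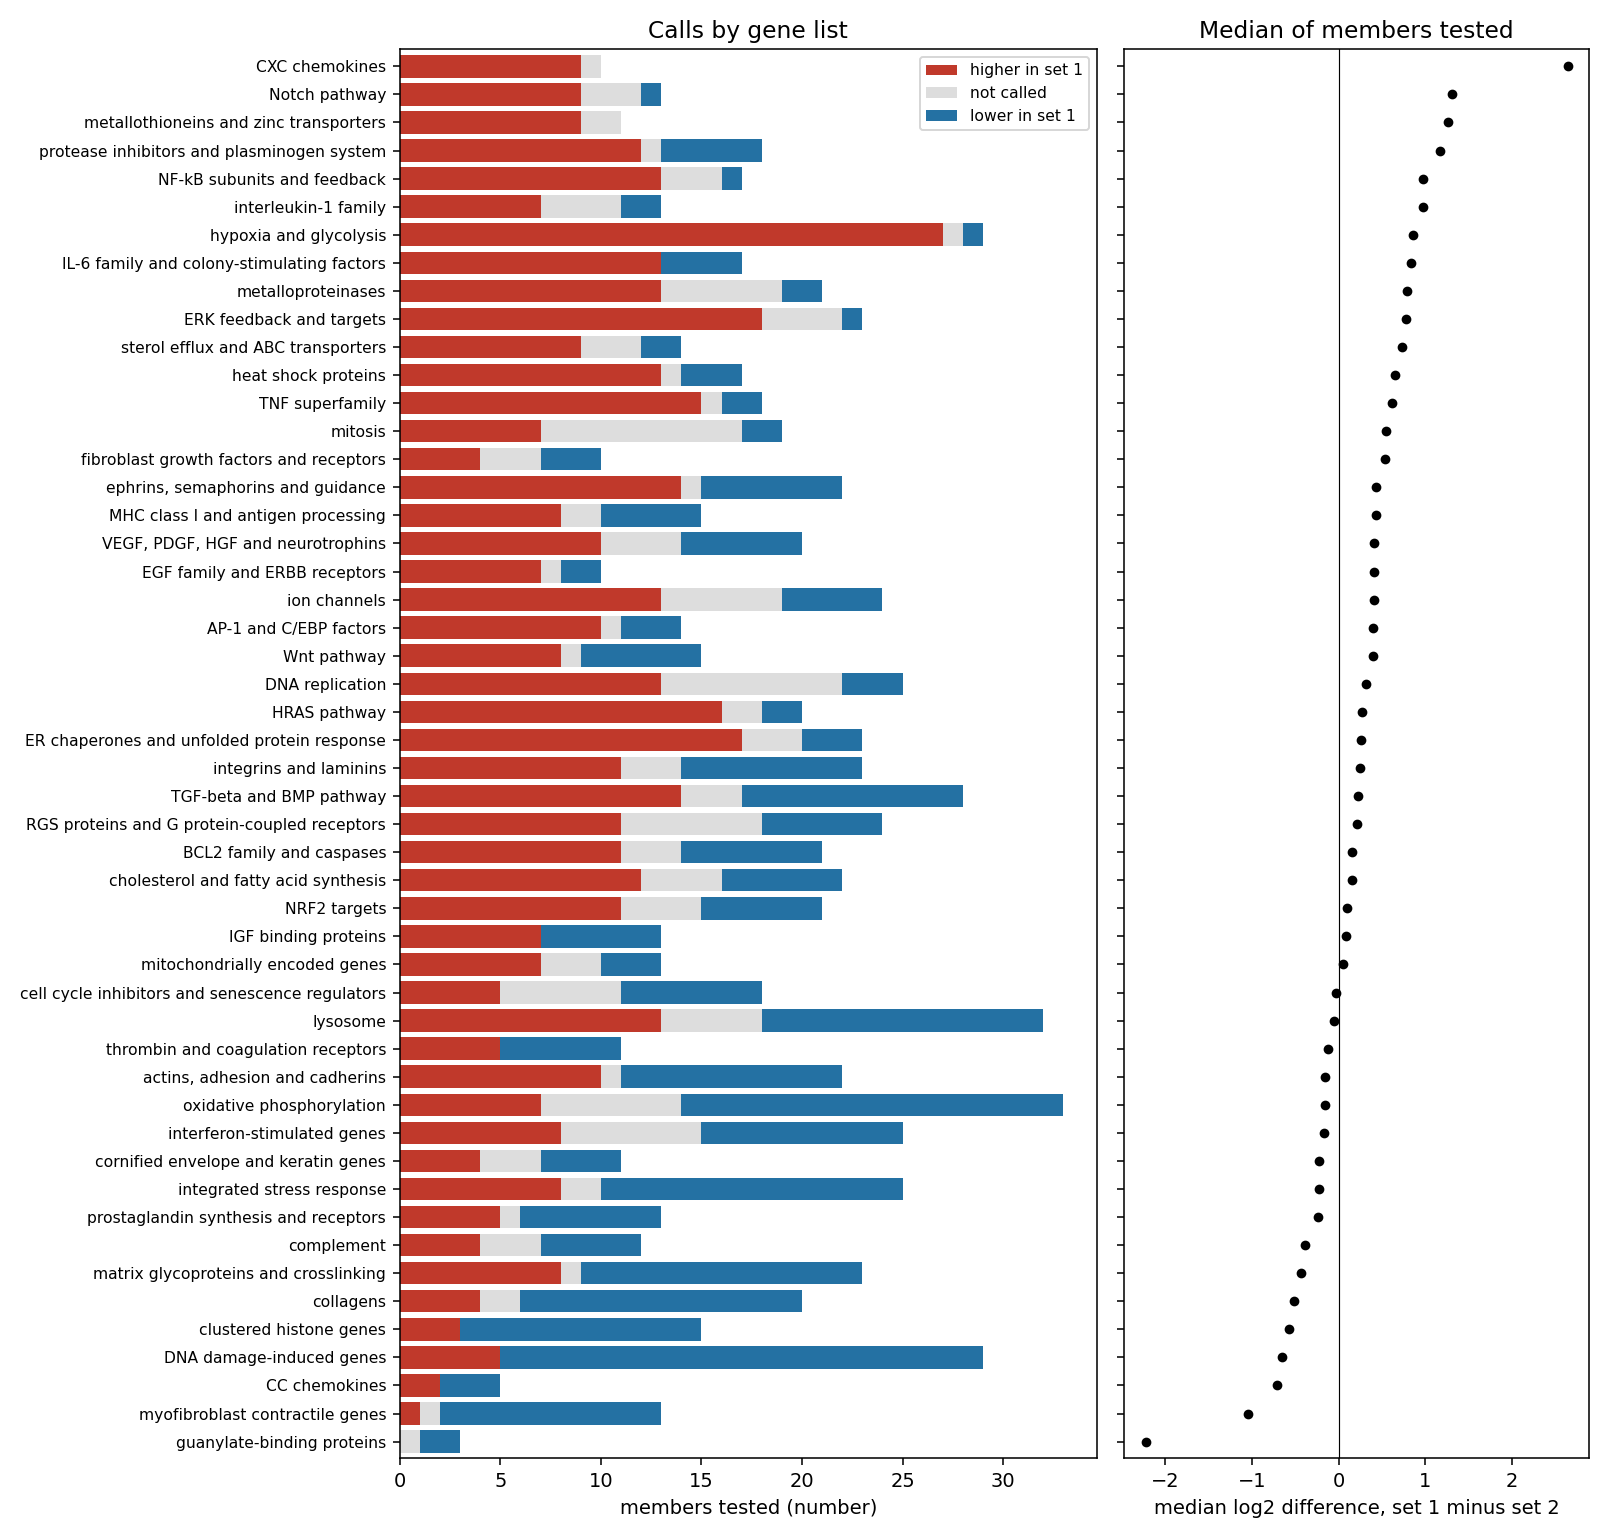
Calls in 50 gene lists, ordered by the median log2 difference (set 1 minus set 2) of their tested members, with the number of members called higher, not called and called lower on the left and the median on the right. CXC chemokines lie at the top with 9 higher and 0 lower, and DNA damage-induced genes with 24 of 29 lower, myofibroblast contractile genes and guanylate-binding proteins near the bottom. Over all tested genes, 35.1% were called higher and 35% lower.

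Most of the tested metalloproteinases and several protease inhibitors were higher in the libraries labelled set 1. Of the metalloproteinases, 13 of the 21 tested (23 listed) were higher in the libraries labelled set 1 and 2 were lower (median log2 difference 0.78). Across the alternatives, 10 to 13 were higher and 2 to 6 lower. MMP3, stromelysin 1, had 2065, 2092 and 2067 CPM in the libraries labelled set 1, against 247, 253 and 231 CPM in set 2 (log2 difference 3.11 ± 0.0257, adjusted p = 2.6e-75). In the control, MMP3 had 1439, 1401 and 1389.5 CPM. MMP10, stromelysin 2, had 92.9, 93 and 95.6 CPM in the libraries labelled set 1, against 6.48, 6.72 and 6.47 CPM in set 2 (log2 difference 3.85 ± 0.0704, adjusted p = 2.9e-54). In the control, MMP10 had 94.6, 87.6 and 84.3 CPM. MMP1 had 5289.7, 5317 and 5373 CPM in the libraries labelled set 1, against 2387, 2434 and 2391 CPM in set 2 (1.16 ± 0.0182), and the membrane-bound MMP14 3493 ± 71.3 CPM in the libraries labelled set 1, against 2002 ± 13.7 CPM in set 2 (0.82 ± 0.0193). These enzymes were lowest in set 2, whereas MMP2, a gelatinase, did not pass the test (−0.04 ± 0.0267), nor did ADAM17 (−0.08 ± 0.0502). MMP12 (−0.55 ± 0.149) and MMP11 (−0.71 ± 0.156) were lower. MMP1 and MMP3 overlap WTAPP1 on the opposite strand. In the list of protease inhibitors and the plasminogen system, 12 of the 18 tested (20 listed) were higher in the libraries labelled set 1 and 5 were lower (median log2 difference 1.17). SERPINA1, alpha-1 antitrypsin, had 138, 136 and 148 CPM in the libraries labelled set 1, against 7.73, 8.56 and 8.8 CPM in set 2, with 17.7, 15.5 and 16.2 CPM in the control (log2 difference 4.09 ± 0.0621, adjusted p = 3.2e-59), highest in the libraries labelled set 1. SERPINB2, plasminogen activator inhibitor 2, had 3692, 3743 and 3712 CPM in the libraries labelled set 1, against 1111, 1182 and 1145 CPM in set 2 (1.71 ± 0.0206). The activators also parted: PLAU, urokinase, was higher (1271 ± 19.9 CPM in the libraries labelled set 1, against 416 ± 8.2 CPM in set 2, 1.63 ± 0.024) and PLAT, tissue plasminogen activator, was lower (74.1 ± 1.88 CPM in the libraries labelled set 1, against 302 ± 5.11 CPM in set 2, −2.01 ± 0.0354). SERPINB3 and SERPINB4 are near-identical copies, so their counts (4.38 ± 0.317 and 3.93 ± 0.0593) are uncertain.

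Thrombin receptors and coagulation genes, the setting in which thrombomodulin works, went both ways. In all, 5 of the 11 tested (11 listed) were higher in the libraries labelled set 1 and 6 were lower (median log2 difference −0.13). F2RL1, the receptor PAR2, had 159, 154 and 153 CPM in the libraries labelled set 1, against 41.9, 50.1 and 44.3 CPM in set 2 (log2 difference 1.79 ± 0.0459, adjusted p = 3.1e-45). In the control, F2RL1 had 268, 262 and 269 CPM. F2RL2, the receptor PAR3, had 13.8, 16.8 and 13.9 CPM in the libraries labelled set 1, against 77.6, 78.1 and 77 CPM in set 2 (log2 difference −2.37 ± 0.0659, adjusted p = 4.3e-43). In the control, F2RL2 had 23.1, 24.2 and 25.3 CPM. F3, tissue factor, which starts coagulation, had 199, 203 and 203 CPM in the libraries labelled set 1, against 381, 385 and 400.0 CPM in set 2 (log2 difference −0.93 ± 0.0295, adjusted p = 9.9e-40). In the control, F3 had 115, 116 and 120.2 CPM. For F2RL2 and F3 set 2 was the highest group, for F2RL1 the control. The thrombin receptor F2R (−0.13 ± 0.0312) and the protein C receptor PROCR (−0.14 ± 0.0534) were slightly lower in the libraries labelled set 1, and protein S, PROS1, was lower by more (−0.78 ± 0.0681). F2RL2 overlaps IQGAP2 on the opposite strand.

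Growth factors parted by family. In the EGF family and its receptors, 7 of the 10 tested (15 listed) were higher in the libraries labelled set 1 and 2 were lower (median log2 difference 0.41). NRG1, neuregulin 1, had 481, 481 and 473 CPM in the libraries labelled set 1, against 92, 97.5 and 88.1 CPM in set 2 (log2 difference 2.39 ± 0.0327, adjusted p = 5.9e-62). In the control, NRG1 had 476, 478 and 478 CPM. AREG, amphiregulin, had 369, 365 and 375 CPM in the libraries labelled set 1, against 85.7, 88.7 and 82.3 CPM in set 2 (log2 difference 2.13 ± 0.0337, adjusted p = 4.2e-58). In the control, AREG had 343, 354 and 353 CPM. These ligands, EREG (0.89 ± 0.0312) and the receptor EGFR (0.68 ± 0.0334) were higher, while EGF itself and ERBB2 (−0.71 ± 0.0559) were lower. TGFA was near the limit of detection in set 2, with 2.17, 2.3 and 1.95 CPM in the libraries labelled set 1, against 0.0499, 0 and 0.0518 CPM in set 2. The fibroblast growth factors and receptors gave 4 higher and 3 lower of 10 tested and 16 listed, median 0.54. FGF2, basic fibroblast growth factor, had 436, 418 and 431 CPM in the libraries labelled set 1, against 186, 180.2 and 184 CPM in set 2 (log2 difference 1.24 ± 0.0294, adjusted p = 2.6e-47), opposite to FGF1, and FGFR1 was higher as well (1.32 ± 0.0359). FGF5 was lower (−0.84 ± 0.0586) and FGF7 did not pass (0.00 ± 0.0859). Vascular and neurotrophic factors were mixed (10 higher and 6 lower of 20 tested and 21 listed, median 0.41). Higher were GDNF (3.16 ± 0.145), ANGPTL4 (1.69 ± 0.0354), PDGFRA (1.29 ± 0.0378) and VEGFA (0.94 ± 0.0337), and lower were BDNF (−1.66 ± 0.0952) and ANGPT1, the ligand of the endothelial receptor TIE2, with 7.55, 8.09 and 7.9 CPM in the libraries labelled set 1, against 36, 37.2 and 35.9 CPM in set 2 (log2 difference −2.19 ± 0.0884, adjusted p = 1.2e-33). FGF2 and NUDT6, BDNF and BDNF-AS, and GDNF and GDNF-AS1 are pairs that overlap on opposite strands. The last of these lists of ligands, the IGF binding proteins, split 7 higher and 6 lower of 13 tested and 15 listed, median 0.08, a median that was −0.02 with upper-quartile scaling and −0.07 with library totals. IGFBP5 had 2625, 2599.6 and 2619.7 CPM in the libraries labelled set 1, against 650.0, 663 and 653 CPM in set 2 (log2 difference 2.01 ± 0.0213, adjusted p = 5.4e-69), IGFBP3 was higher too (2.09 ± 0.0678), and IGFBP2 (−0.66 ± 0.0514) and IGFBP4 (−0.62 ± 0.0258) were lower.

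Members of the TGF-beta superfamily went both ways. The list gave 14 higher and 11 lower of 28 tested and 29 listed, median 0.22. INHBA, the subunit of activin A, had 2772, 2771 and 2698 CPM in the libraries labelled set 1, against 641, 651 and 624 CPM in set 2 (log2 difference 2.12 ± 0.0219, adjusted p = 1.2e-69). In the control, INHBA had 1446, 1477 and 1484 CPM. BMP2 had 93.1, 94.9 and 92.2 CPM in the libraries labelled set 1, against 8.03, 6.87 and 7.97 CPM in set 2 (log2 difference 3.63 ± 0.0695, adjusted p = 5.3e-53), and TGFBI, a matrix protein induced by TGF-beta, 1497 ± 13.3 CPM in the libraries labelled set 1, against 288 ± 2.55 CPM in set 2 (2.40 ± 0.0242). TGFB1 was higher (1.38 ± 0.0343) and TGFB2 lower (−0.81 ± 0.1). The BMP antagonists GREM1 (−0.51 ± 0.0241) and NOG (−2.09 ± 0.175) and the activin antagonist FST (−0.93 ± 0.092) were lower, as was the co-receptor TGFBR3, at 14.4 ± 0.883 CPM in the libraries labelled set 1, against 39.2 ± 4.9 CPM in set 2 (−1.43 ± 0.0823). INHBA overlaps INHBA-AS1 on the opposite strand.

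Most collagen genes were lower in the libraries labelled set 1, among them both chains of type I collagen, and the 3 tested chains of collagen VI were higher. Of the collagens, 4 of the 20 tested (23 listed) were higher in the libraries labelled set 1 and 14 were lower (median log2 difference −0.51). COL1A2, on chromosome 7 (chr7:94394895-94431227, plus strand, GRCh38), had 469.9, 445 and 460.2 CPM in the libraries labelled set 1, against 3361, 3362 and 3332 CPM in set 2 (log2 difference −2.85 ± 0.0223, adjusted p = 1.3e-76). In the control, COL1A2 had 799, 792 and 780.3 CPM. COL1A1 had 861, 820.3 and 855 CPM in the libraries labelled set 1, against 4199.9, 4149 and 4182 CPM in set 2 (log2 difference −2.29 ± 0.0208, adjusted p = 5.4e-73). In the control, COL1A1 had 1748, 1751 and 1768 CPM. COL3A1 stood at 161 ± 5.16 CPM in the libraries labelled set 1, against 643 ± 5.78 CPM in set 2 (−1.98 ± 0.0288). In the control, COL3A1 stood at 257 ± 5.83 CPM. In all 3 set 2 was far above the other groups and the control was nearer to the libraries labelled set 1. COL5A2 (−2.25 ± 0.0293) and COL12A1 (−1.51 ± 0.0394) were lower too, and the basement membrane chains COL4A1 (−0.54 ± 0.0245) and COL4A2 (−0.30 ± 0.0243) by less. COL6A1 had 3731, 3654 and 3693 CPM in the libraries labelled set 1, against 1336, 1312 and 1369 CPM in set 2 (log2 difference 1.48 ± 0.02, adjusted p = 2.8e-62), and COL6A3 (0.74 ± 0.0192), COL6A2 (0.59 ± 0.0208) and COL7A1, of anchoring fibrils (1.98 ± 0.0295), were also higher. COL1A1 overlaps RP11-893F2.5 on the opposite strand. Matrix glycoproteins and crosslinking enzymes gave 8 higher and 14 lower of 23 tested and 24 listed, median −0.44. LUM, lumican, had 22.2, 22.2 and 21.7 CPM in the libraries labelled set 1, against 131, 137 and 127 CPM in set 2 (log2 difference −2.56 ± 0.0518, adjusted p = 1.7e-51). In the control, LUM had 24.5, 29.2 and 26.7 CPM. DCN, decorin, stood at 20.1 ± 1.64 CPM in the libraries labelled set 1, against 89.7 ± 5.61 CPM in set 2 (−2.14 ± 0.0607), and THBS1, thrombospondin 1, at 103 ± 0.747 CPM in the libraries labelled set 1, against 348 ± 5.25 CPM in set 2 (−1.74 ± 0.0326). Higher were the collagen-modifying enzymes LOX (1.86 ± 0.0297) and PLOD2 (1.10 ± 0.019) and the proteoglycan BGN (1.46 ± 0.0381).

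Genes of the contractile apparatus were lower almost throughout. Of the myofibroblast genes, 1 of the 13 tested (14 listed) was higher in the libraries labelled set 1 and 11 were lower (median log2 difference −1.05). TAGLN, transgelin, had 92.4, 87.8 and 82.3 CPM in the libraries labelled set 1, against 413, 435 and 426 CPM in set 2 (log2 difference −2.26 ± 0.0344, adjusted p = 3.2e-59). In the control, TAGLN had 117, 109 and 109 CPM. TPM1, a tropomyosin, stood at 291 ± 4.4 CPM in the libraries labelled set 1, against 816 ± 8.24 CPM in set 2 (−1.47 ± 0.0258), CALD1, caldesmon, at 307 ± 5.12 CPM in the libraries labelled set 1, against 919 ± 20.1 CPM in set 2 (−1.56 ± 0.0257) and ACTG2 at 99.2 ± 3.26 CPM in the libraries labelled set 1, against 309 ± 6.92 CPM in set 2 (−1.62 ± 0.034). ACTA2, smooth muscle alpha-actin, did not pass the test (−0.09 ± 0.0787), and SMTN, smoothelin, was higher (0.25 ± 0.0271). TAGLN overlaps PCSK7 on the opposite strand. Smooth muscle markers, 6 genes that partly repeat this list, summed to 518 to 530 CPM in the libraries labelled set 1, 692 to 703 CPM in set 2 and 538 to 547 CPM in the control.

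Adhesion genes differed in both directions. Integrins and laminins gave 11 higher and 9 lower of 23 tested and 25 listed, median 0.25, against 35.1% and 35% of all genes. ITGB3, which pairs with the alpha-v chain, had 118, 112 and 115 CPM in the libraries labelled set 1, against 26.6, 28 and 24.6 CPM in set 2 (log2 difference 2.14 ± 0.0521, adjusted p = 1.5e-46). In the control, ITGB3 had 116, 126 and 130.5 CPM. ITGA6, a laminin receptor chain, had 89.6, 96.9 and 95.3 CPM in the libraries labelled set 1, against 333, 335 and 308 CPM in set 2 (log2 difference −1.78 ± 0.0357, adjusted p = 1.2e-51). In the control, ITGA6 had 79.5, 80.8 and 81.7 CPM. LAMB3, a chain of laminin 332, was higher (2.03 ± 0.0662), and its partner LAMA3 was lower at a low level (0.742 ± 0.272 CPM in the libraries labelled set 1, against 4.19 ± 0.486 CPM in set 2). Actins, adhesion molecules and cadherins gave 10 higher and 11 lower of 22 tested and 25 listed, median −0.16. ICAM1, the leukocyte adhesion molecule, had 1067, 1074 and 1066 CPM in the libraries labelled set 1, against 461, 456 and 451 CPM in set 2, with 544, 528 and 547 CPM in the control (log2 difference 1.25 ± 0.0237, adjusted p = 4.1e-53), and SDC1 (1.64 ± 0.0556) and L1CAM (1.37 ± 0.0473) were higher. SDC4 had 151, 150.1 and 154 CPM in the libraries labelled set 1, against 543, 553 and 545 CPM in set 2 (log2 difference −1.83 ± 0.029, adjusted p = 4.4e-58), and CDH2, N-cadherin (−1.71 ± 0.0523), and PCDH18 (−2.86 ± 0.092) were lower. Ephrins, semaphorins and other guidance genes gave 14 higher and 7 lower of 22 tested and 26 listed, median 0.43. SEMA6D was higher (60.4 ± 3.8 CPM in the libraries labelled set 1, against 14 ± 1.52 CPM in set 2, 2.13 ± 0.0721) and SLIT2, a ligand of ROBO receptors, lower (6.19 ± 1.14 CPM in the libraries labelled set 1, against 54.9 ± 1.72 CPM in set 2, −3.13 ± 0.0878). ROBO2 was lower with it (−3.71 ± 0.23).

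Most of the tested Notch genes were higher in the libraries labelled set 1, and Wnt genes went both ways. Over all tested genes, 35.1% were called higher and 35% lower. In the Notch pathway, 9 of the 13 tested (15 listed) were higher in the libraries labelled set 1 and 1 was lower (median log2 difference 1.31). Among genes of at least 10 CPM in 3 libraries the median was 0.00. Under the alternatives run, 3 to 9 Notch genes were higher and 1 to 3 lower. NOTCH1 had 130.0, 125 and 131 CPM in the libraries labelled set 1, against 19.3, 21.8 and 21.3 CPM in set 2 (log2 difference 2.64 ± 0.0528, adjusted p = 7.5e-52). In the control, NOTCH1 had 73.1, 75.7 and 78.2 CPM. HEY1, a target of the pathway (1.70 ± 0.128), and the ligand JAG2 (1.72 ± 0.131) were higher, while NOTCH2 and JAG1 did not pass (−0.00 ± 0.03 and 0.03 ± 0.0587). In the Wnt pathway (8 higher and 6 lower of 15 tested and 22 listed, median 0.39) WNT7B had 152, 145 and 151 CPM in the libraries labelled set 1, against 13.5, 10.8 and 12.7 CPM in set 2 (log2 difference 3.61 ± 0.0576, adjusted p = 7.2e-58). In the control, WNT7B had 49.8, 51.4 and 49.1 CPM. WNT5A was higher (0.94 ± 0.028) and the secreted protein DKK3 lower (−0.67 ± 0.0259). WNT16, the Wnt gene with the largest fitted difference, was nearly absent, at 0.0174 ± 0.0301 CPM in the libraries labelled set 1, against 0.859 ± 0.147 CPM in set 2.

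Feedback genes and targets of ERK signalling were mostly higher in the libraries labelled set 1, while HRAS differed little. For HRAS, the oncogene of the model, levels were 669.7 ± 12.3 CPM in the libraries labelled set 1, against 630.1 ± 16.4 CPM in set 2, with 563 ± 8.98 CPM in the control, a difference of 0.10 ± 0.0248 that was 0.00 with upper-quartile scaling and −0.05 with library totals. Of the ERK feedback genes and targets, 18 of the 23 tested (23 listed) were higher in the libraries labelled set 1 and 1 was lower (median log2 difference 0.78). CCND1, cyclin D1, had 1253, 1236 and 1246 CPM in the libraries labelled set 1, against 428, 432 and 423 CPM in set 2 (log2 difference 1.56 ± 0.0235, adjusted p = 2.4e-59). In the control, CCND1 had 1985, 2025 and 2016 CPM. SPRY4 had 337, 334 and 340.0 CPM in the libraries labelled set 1, against 117, 109.6 and 108 CPM in set 2 (log2 difference 1.61 ± 0.0331, adjusted p = 4.4e-51), and DUSP6, a phosphatase of ERK, 377 ± 3.52 CPM in the libraries labelled set 1, against 155 ± 4.14 CPM in set 2 (1.30 ± 0.0307). SPRY2 (1.47 ± 0.0374), IER3 (1.43 ± 0.0246) and MYC (1.03 ± 0.0487) were higher, EGR1 did not pass (−0.03 ± 0.0265) and ETV1 was lower (−1.79 ± 0.0839). In the list of RAS pathway components, 16 of the 20 tested (21 listed) were higher in the libraries labelled set 1 and 2 were lower (median log2 difference 0.26), with the kinase MAP2K1 (0.91 ± 0.0417) higher and NRAS lower (−0.57 ± 0.0445). Under the alternatives run, 9 to 16 genes of this list were higher and 2 to 4 lower. AP-1 and C/EBP factors gave 10 higher and 3 lower of 14 tested and 16 listed, median 0.40. MAFF (1.41 ± 0.0363), JUNB (0.65 ± 0.038), FOSL1 (0.55 ± 0.0353) and CEBPB (0.54 ± 0.0318) were higher and CEBPD lower, at 34.5 ± 0.432 CPM in the libraries labelled set 1, against 81 ± 4.78 CPM in set 2 (−1.21 ± 0.0544). MMP10, IL11 and EGF, genes with large differences, hold the word TGANTCA in the same promoter window. N stands for any base, so the word is a loose form of the AP-1 binding sequence. It reads TGAATCA in MMP10 and TGAGTCA in IL11 and EGF. The windows set a higher, a higher and a lower gene side by side (RefSeq, GRCh38.p14). Capitals mark the word, which as a pattern reads alike on both strands.
MMP10 (chr11:102780579-102780878, minus strand): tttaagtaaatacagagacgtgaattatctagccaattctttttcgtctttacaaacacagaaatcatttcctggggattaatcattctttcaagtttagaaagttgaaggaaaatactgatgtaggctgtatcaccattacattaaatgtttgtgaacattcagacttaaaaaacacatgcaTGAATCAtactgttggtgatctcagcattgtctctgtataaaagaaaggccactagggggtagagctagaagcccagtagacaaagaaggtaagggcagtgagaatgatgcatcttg
IL11 (chr19:55370414-55370713, minus strand): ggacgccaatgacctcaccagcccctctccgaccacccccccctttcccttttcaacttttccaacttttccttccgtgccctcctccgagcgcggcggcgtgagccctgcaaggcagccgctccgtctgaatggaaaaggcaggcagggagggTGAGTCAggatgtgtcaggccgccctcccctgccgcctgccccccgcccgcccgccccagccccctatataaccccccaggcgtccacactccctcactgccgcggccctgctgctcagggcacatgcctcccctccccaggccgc
EGF (chr4:109912633-109912932, plus strand): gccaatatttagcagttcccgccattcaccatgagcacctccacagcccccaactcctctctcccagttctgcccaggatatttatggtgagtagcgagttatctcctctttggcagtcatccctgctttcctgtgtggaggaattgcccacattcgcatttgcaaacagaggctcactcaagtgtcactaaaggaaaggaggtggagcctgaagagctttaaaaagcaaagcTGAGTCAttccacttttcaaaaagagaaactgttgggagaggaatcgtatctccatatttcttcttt
The word begins 67, 96 and 17 bases before the start of MMP10, IL11 and EGF. It is common: 7.49% of tested genes with a window hold it, 10.5% of those called at least 2-fold higher and 11.2% of those called at least 2-fold lower in the libraries labelled set 1, so the word occurs at like rates on both sides.

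Genes of hypoxia and glycolysis were higher in the libraries labelled set 1 almost without exception. Of this list, 27 of the 29 tested (30 listed) were higher in the libraries labelled set 1 and 1 was lower (median log2 difference 0.86). NDRG1, a hypoxia-induced gene, had 260.0, 262 and 267 CPM in the libraries labelled set 1, against 28.9, 29 and 32.1 CPM in set 2 (log2 difference 3.15 ± 0.0426, adjusted p = 2.6e-62). In the control, NDRG1 had 163, 169 and 172 CPM. SLC16A3, the lactate exporter MCT4, had 793, 775 and 779 CPM in the libraries labelled set 1, against 151, 147 and 164 CPM in set 2 (log2 difference 2.36 ± 0.0297, adjusted p = 2.8e-64). In the control, SLC16A3 had 897, 906 and 912 CPM. HK2, hexokinase 2, had 324, 315 and 317 CPM in the libraries labelled set 1, against 72.3, 77.1 and 72 CPM in set 2 (log2 difference 2.13 ± 0.0352, adjusted p = 6.8e-57). In the control, HK2 had 309, 295 and 322 CPM. For SLC16A3 and HK2 the control lay close to or above the libraries labelled set 1, and set 2 was the group that stood apart. The carbonic anhydrase CA12 (2.38 ± 0.0666), BNIP3 (1.60 ± 0.0313), the glucose transporter SLC2A1 (1.58 ± 0.037) and the enzymes GPI (1.07 ± 0.0262), PGK1 (0.83 ± 0.0224), LDHA (0.78 ± 0.0205), GAPDH (0.63 ± 0.018) and PKM (0.24 ± 0.018) were higher. P4HA1 did not pass (0.03 ± 0.0285), and SLC2A3, another glucose transporter, was lower, with 466, 457 and 456 CPM in the libraries labelled set 1, against 809, 798 and 793 CPM in set 2 (log2 difference −0.78 ± 0.0245, adjusted p = 4.6e-40). In the control, SLC2A3 had 187, 182 and 189.8 CPM.

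**Figure D4:**
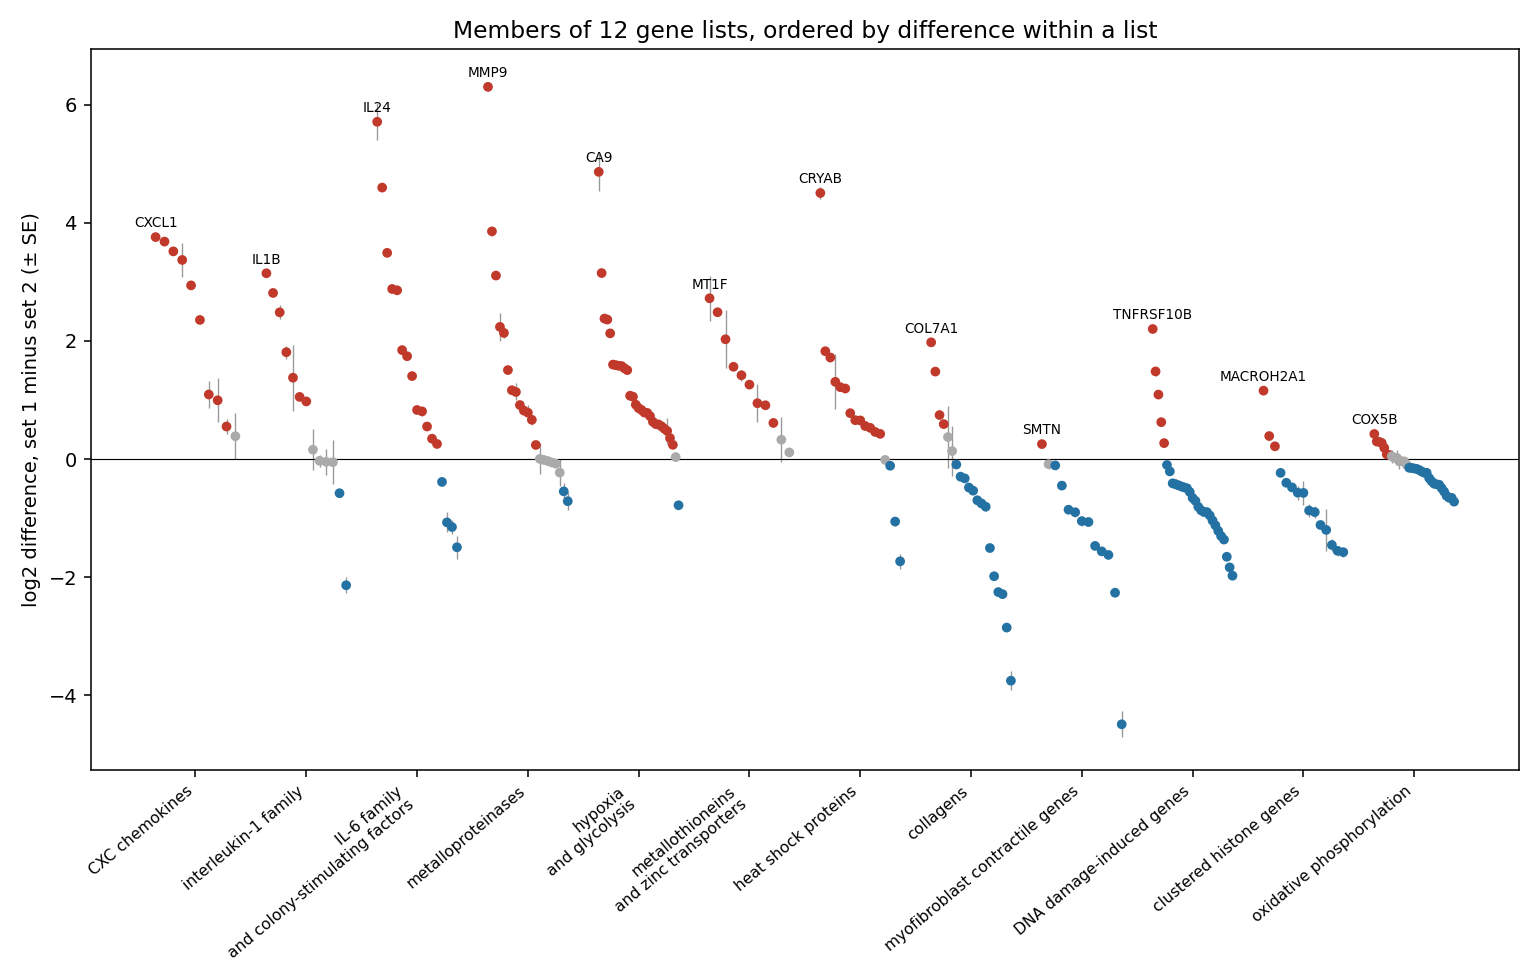
Log2 differences (set 1 minus set 2, ± SE) of the tested members of 12 gene lists, 1 point per gene, ordered from highest to lowest within each list, red where called higher, blue where called lower and grey where not called. The highest member of each list is named: 27 of 29 hypoxia and glycolysis genes lie above 0 as called genes, and 24 of 29 DNA damage-induced genes lie below 0.

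Genes known to be induced by DNA damage, many of which slow the cell cycle, repair DNA or favour cell death, were mostly lower in the libraries labelled set 1. Of this list, 5 of the 29 tested (29 listed) were higher in the libraries labelled set 1 and 24 were lower (median log2 difference −0.66). FDXR, a mitochondrial reductase, had 12.4, 11.1 and 14 CPM in the libraries labelled set 1, against 47.4, 42.7 and 45.2 CPM in set 2 (log2 difference −1.84 ± 0.0795, adjusted p = 7e-32). In the control, FDXR had 16.5, 15 and 16.1 CPM. BTG2, an antiproliferative gene, had 26.3, 29.1 and 26.4 CPM in the libraries labelled set 1, against 85, 91.8 and 84 CPM in set 2 (log2 difference −1.66 ± 0.0562, adjusted p = 5.5e-38). In the control, BTG2 had 14.1, 14.3 and 12.4 CPM. GADD45A stood at 121 ± 6.07 CPM in the libraries labelled set 1, against 285 ± 21.8 CPM in set 2 (−1.22 ± 0.0378). In the control, GADD45A stood at 91 ± 2.25 CPM. For BTG2 and GADD45A set 2 was the highest group and the libraries labelled set 1 still stood above the control, whereas for FDXR the control lay between the sets. MDM2 (−0.49 ± 0.0366), BAX (−0.90 ± 0.04), BBC3 (−1.04 ± 0.0949), RRM2B (−0.95 ± 0.0337) and POLH (−1.36 ± 0.0459) were lower. Against this direction the death receptors TNFRSF10B, with 735, 729 and 726 CPM in the libraries labelled set 1, against 157, 163 and 162 CPM in set 2 (log2 difference 2.20 ± 0.0279, adjusted p = 4.7e-64), and FAS (1.48 ± 0.0768) were higher, as was SESN2 (1.09 ± 0.0429). FAS overlaps ACTA2 on the opposite strand.

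Of the inhibitors that hold the arrest, CDKN1A and CDKN2B differed little, and CDKN2A and CDKN1B were lower in the libraries labelled set 1. CDKN1A, which encodes p21, had 2042, 2036 and 2036 CPM in the libraries labelled set 1, against 1876, 1885 and 1912 CPM in set 2, with 1158, 1160.2 and 1159 CPM in the control (log2 difference 0.12 ± 0.0198, adjusted p = 7.5e-08), a difference that was 0.02 with upper-quartile scaling (adjusted p = 0.386) and −0.03 with library totals. Both sets stood well above the control. CDKN2A, which encodes p16, had 117, 109.7 and 119.6 CPM in the libraries labelled set 1, against 161, 147 and 176 CPM in set 2, with 112, 112 and 109.6 CPM in the control (log2 difference −0.47 ± 0.0419, adjusted p = 5e-16), and it overlaps CDKN2B-AS1 on the opposite strand. CDKN2B was lower by less (−0.25 ± 0.0422), and CDKN1B, which encodes p27, by more (−0.88 ± 0.0709). LMNB1, lamin B1, which is lost in senescent cells, was low in each group (2.64 ± 0.184 CPM in the libraries labelled set 1, against 2.03 ± 0.445 CPM in set 2) and the test found no difference past the threshold (log2 difference 0.39 ± 0.243, adjusted p = 0.147). The list of cell cycle inhibitors and senescence regulators gave 5 higher and 7 lower of 18 tested and 18 listed, median −0.02. Replication genes, most of them at low levels, went both ways (13 higher and 3 lower of 25 tested and 27 listed, median 0.32; 6 to 15 were higher under the alternatives run), with RRM2 at 12.9 ± 0.295 CPM in the libraries labelled set 1, against 1.76 ± 0.782 CPM in set 2 (2.90 ± 0.169) and MCM5 at 11.1 ± 1.01 CPM in the libraries labelled set 1, against 4.49 ± 0.047 CPM in set 2 (1.32 ± 0.134), and PCNA was lower (−0.47 ± 0.0665). Mitosis genes gave 7 higher and 2 lower of 19 tested and 24 listed, median 0.55. Under the alternatives run, 2 to 9 of them were higher and 0 to 3 lower. AURKA, Aurora kinase A, stood at 19.6 ± 1.54 CPM in the libraries labelled set 1, against 4.78 ± 0.558 CPM in set 2 (2.05 ± 0.117). Most of the other mitosis genes stayed under 10 CPM in every group. Clustered and other histone genes were lower (3 higher and 12 lower of 15 tested and 18 listed, median −0.57), led by H2AC6 (−1.58 ± 0.0757) and H4C8 (−1.55 ± 0.0893), and MACROH2A1 was higher (1.16 ± 0.0428).

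Genes of cell death went both ways (11 higher and 7 lower of 21 tested and 24 listed, median 0.16), against 35.1% and 35% of all genes. MCL1, a survival factor, had 1310.1, 1290.3 and 1257 CPM in the libraries labelled set 1, against 374, 377 and 387 CPM in set 2 (log2 difference 1.78 ± 0.0243, adjusted p = 5.6e-62). In the control, MCL1 had 896, 922 and 916 CPM. BCL2L1, which encodes BCL-XL, was lower (45.7 ± 1.86 CPM in the libraries labelled set 1, against 81.1 ± 0.723 CPM in set 2, −0.81 ± 0.05), as was BCL2L2 (−1.47 ± 0.0451), whose exons overlap BCL2L2-PABPN1. BCL2A1 (1.23 ± 0.0572) and BID (0.96 ± 0.0412) were higher.

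Heat shock, endoplasmic reticulum and amino acid stress genes differed in direction. Of the heat shock genes, which include mitochondrial ones, 13 of the 17 tested (19 listed) were higher in the libraries labelled set 1 and 3 were lower (median log2 difference 0.65). CRYAB, alpha B-crystallin, had 56.3, 50.05 and 50.4 CPM in the libraries labelled set 1, against 1.99, 2.84 and 2.12 CPM in set 2, with 0.317, 0.646 and 0.562 CPM in the control. HSPA1A, inducible HSP70, had 109.8, 112 and 108 CPM in the libraries labelled set 1, against 29.6, 32.7 and 31.7 CPM in set 2, with 21.1, 20.5 and 19.98 CPM in the control (log2 difference 1.83 ± 0.0505, adjusted p = 3.1e-43), and its near-identical copy HSPA1B, with which reads may be confused, moved alike (1.72 ± 0.0689). Both genes were highest in the libraries labelled set 1. HSPD1, the mitochondrial chaperonin (1.22 ± 0.0261), and DNAJB1 (1.19 ± 0.0337) were higher, and HSPB8 (−1.06 ± 0.07) and HSPB6 (−1.73 ± 0.131) were lower. Chaperones of the endoplasmic reticulum were higher by smaller amounts (17 higher and 3 lower of 23 tested and 24 listed, median 0.25), with HYOU1 at 317 ± 9.71 CPM in the libraries labelled set 1, against 135 ± 2.43 CPM in set 2, with 403 ± 6.21 CPM in the control (1.25 ± 0.0323) and HSPA5, BiP, at 0.64 ± 0.0217, while CREB3L1 was lower (−1.40 ± 0.0346). The integrated stress response went mostly the other way (8 higher and 15 lower of 25 tested and 25 listed, median −0.23). ALDH1L2, a mitochondrial folate enzyme, had 8.07, 8.66 and 8.87 CPM in the libraries labelled set 1, against 35, 35.7 and 33.6 CPM in set 2, with 58.1, 59 and 55 CPM in the control (log2 difference −2.01 ± 0.0883, adjusted p = 1.7e-31), and the serine synthesis genes PSAT1 (−1.82 ± 0.0675), PSPH (−1.59 ± 0.0983) and PHGDH (−1.23 ± 0.0904) were lower. DDIT4 (1.46 ± 0.0498) and TRIB3 (1.11 ± 0.0511) were higher, and ATF4, which drives this response, was slightly lower (−0.13 ± 0.0346).

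Among the NRF2 targets of the oxidative stress response a few large differences stood in a list with no common direction (11 higher and 6 lower of 21 tested and 22 listed, median 0.10, a median of −0.00 with upper-quartile scaling and −0.05 with library totals). HMOX1, heme oxygenase 1, had 124, 128 and 128 CPM in the libraries labelled set 1, against 18.5, 17 and 17.2 CPM in set 2 (log2 difference 2.86 ± 0.0542, adjusted p = 2.5e-53). In the control, HMOX1 had 41.1, 44.5 and 39 CPM. TXNRD1, thioredoxin reductase, had 498, 518 and 512 CPM in the libraries labelled set 1, against 91.6, 97.1 and 94.2 CPM in set 2, with 383, 375 and 382 CPM in the control (log2 difference 2.45 ± 0.0317, adjusted p = 1.7e-63), and GCLM, of glutathione synthesis, 82.8 ± 2.94 CPM in the libraries labelled set 1, against 19.95 ± 2.27 CPM in set 2 (2.07 ± 0.062). NQO1 differed little (0.17 ± 0.0505), and ME1 was lower (−0.80 ± 0.0439). Metallothioneins and zinc transporters were higher together: 9 of the 11 tested (13 listed) were higher in the libraries labelled set 1 and 0 were lower (median log2 difference 1.26). SLC39A14, a zinc and iron importer, had 580.4, 575 and 566 CPM in the libraries labelled set 1, against 103, 101 and 108 CPM in set 2 (log2 difference 2.49 ± 0.0309, adjusted p = 1.5e-64). In the control, SLC39A14 had 584, 588 and 587 CPM. MT2A had 2979, 3460.3 and 3491 CPM in the libraries labelled set 1, against 1383, 1378 and 1436 CPM in set 2, with 2281, 2252 and 2272 CPM in the control (log2 difference 1.26 ± 0.0274, adjusted p = 1.4e-49), and MT1E (1.56 ± 0.0438) and MT1X (1.42 ± 0.0893) moved alike, as near-identical copies whose counts are uncertain.

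Nuclear genes of oxidative phosphorylation were mostly lower by small amounts (7 higher and 19 lower of 33 tested and 33 listed, median −0.16). Across the alternatives, 3 to 7 were higher and 18 to 25 lower. UQCRFS1, of complex III, had 102, 98.5 and 106 CPM in the libraries labelled set 1, against 173, 163 and 175 CPM in set 2 (log2 difference −0.72 ± 0.0379, adjusted p = 2.9e-27), the lowest of the list, and COX5B was the highest (0.42 ± 0.0515). The mitochondrially encoded genes gave 7 higher and 3 lower of 13 tested and 13 listed, median 0.05. Across the alternatives, 1 to 8 of them were higher and 2 to 12 lower, so their split depends on the processing. The median was −0.05 with upper-quartile scaling and −0.10 with library totals. MT-CO3 was lower (−0.30 ± 0.0217), and MT-ND4 was higher (0.09 ± 0.0164) but −0.01 and −0.07 under those scalings. Lysosome genes divided (13 higher and 14 lower of 32 tested and 32 listed, median −0.05). CTSB had 1592, 1580.2 and 1599 CPM in the libraries labelled set 1, against 3589.8, 3625 and 3649 CPM in set 2, with 2982, 2908 and 2919 CPM in the control (log2 difference −1.17 ± 0.0192, adjusted p = 4.1e-57), LAMP1 was lower (−0.58 ± 0.0243), and CTSS, cathepsin S, was higher (84.2 ± 7.51 CPM in the libraries labelled set 1, against 25.8 ± 1.11 CPM in set 2, 1.73 ± 0.0594).

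Lipid genes were mixed. Cholesterol and fatty acid synthesis gave 12 higher and 6 lower of 22 tested and 23 listed, median 0.15, a median of −0.00 with library totals. ACLY, which makes cytosolic acetyl-CoA, stood at 713 ± 13.1 CPM in the libraries labelled set 1, against 339.5 ± 5.72 CPM in set 2 (1.09 ± 0.0259), FASN was higher (0.65 ± 0.0289), and FDPS (−0.66 ± 0.0399) and FDFT1 (−0.52 ± 0.0345) were lower. Sterol efflux genes and ABC transporters were mostly higher (9 higher and 2 lower of 14 tested and 14 listed, median 0.74), with ABCC3 at 19.4 ± 0.861 CPM in the libraries labelled set 1, against 5.02 ± 0.524 CPM in set 2 (1.97 ± 0.115), ABCC1 at 1.00 ± 0.0365 and ABCA1 at 0.67 ± 0.0391. Under the alternatives run, 5 to 10 genes of this list were higher and 1 to 3 lower.

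Interferon genes showed no common direction, and antigen presentation divided within its own machinery. Interferon-stimulated genes gave 8 higher and 10 lower of 25 tested and 31 listed, median −0.17, most of them at low levels: ISG15 was lower (30.7 ± 1.13 CPM in the libraries labelled set 1, against 54.4 ± 1.16 CPM in set 2, −0.81 ± 0.06) and IRF1 was higher (1.22 ± 0.0945). Of the 3 tested guanylate-binding proteins of 5 listed, GBP1 had 13, 13.9 and 15.1 CPM in the libraries labelled set 1, against 66.4, 65.7 and 67.6 CPM in set 2, with 17.5, 15.1 and 15.7 CPM in the control (log2 difference −2.23 ± 0.0678, adjusted p = 8.1e-41), GBP2 is given above and GBP3 did not pass (−0.06 ± 0.0685); their median was −2.23. MHC class I and antigen processing genes gave 8 higher and 5 lower of 15 tested and 16 listed, median 0.43. HLA-C had 547, 513 and 525 CPM in the libraries labelled set 1, against 66.7, 71.1 and 73.8 CPM in set 2, with 426, 410.2 and 413 CPM in the control (log2 difference 2.92 ± 0.0342, adjusted p = 3.3e-66), and HLA-B was higher (1.86 ± 0.0259), while B2M, the shared light chain, was lower (−0.24 ± 0.0228). The HLA genes are alike and vary between people, so their counts are uncertain. The peptide transporter chains parted, with TAP2 higher (1.65 ± 0.0908) and TAP1 lower (−0.87 ± 0.0472). Complement genes gave 4 higher and 5 lower of 12 tested and 14 listed, median −0.38: C3 had 188, 185 and 183 CPM in the libraries labelled set 1, against 57.3, 55.9 and 47.5 CPM in set 2 (log2 difference 1.81 ± 0.044, adjusted p = 1.4e-46), and the initiating proteases C1S (−1.42 ± 0.0531) and C1R (−1.44 ± 0.146) were lower, C1R and C1RL sharing exons.

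Prostaglandin genes were mixed (5 higher and 7 lower of 13 tested and 19 listed, median −0.24). PTGS2, cyclooxygenase 2, had 119, 128 and 129 CPM in the libraries labelled set 1, against 29.4, 26.3 and 26.8 CPM in set 2 (log2 difference 2.20 ± 0.0514, adjusted p = 1.1e-47). In the control, PTGS2 had 268, 268 and 263 CPM. PTGES, a prostaglandin E synthase, stood at 17.8 ± 0.986 CPM in the libraries labelled set 1, against 1.82 ± 0.368 CPM in set 2 (3.30 ± 0.146), and PTGS1 was lower (−0.85 ± 0.0697). The receptors PTGIR (−0.69 ± 0.0755), PTGER4 (−0.71 ± 0.188) and PTGFR (−1.92 ± 0.185) were lower. Among RGS proteins and G protein-coupled receptors (11 higher and 6 lower of 24 tested and 26 listed, median 0.21), BDKRB2, the bradykinin receptor, had 313, 321 and 323 CPM in the libraries labelled set 1, against 36.2, 36.6 and 39.7 CPM in set 2, with 272, 264 and 261 CPM in the control (log2 difference 3.11 ± 0.0395, adjusted p = 5.5e-64), while S1PR1 (−2.98 ± 0.137) and RGS5 (−3.22 ± 0.149) were lower along with RGS4. Ion channels gave 13 higher and 5 lower of 24 tested and 27 listed, median 0.41, with KCNG1 (1.46 ± 0.0329) and KCNK6 (1.56 ± 0.0789) higher and the sodium channel SCN9A lower, at 14 ± 1.31 CPM in the libraries labelled set 1, against 76 ± 3.67 CPM in set 2 (−2.43 ± 0.0672). Cornified envelope and keratin genes gave 4 higher and 4 lower of 11 tested and 31 listed, median −0.23; KRT18 was higher (0.59 ± 0.0496) and its partner KRT8 lower (−0.53 ± 0.075), genes with many near copies and, in the annotation, overlapping exons.

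The summed hepatocyte, leukocyte, endothelial and epithelial markers were higher in the libraries labelled set 1 than in set 2. Of 12 hepatocyte markers 2 were tested, 1 higher and 1 lower, and APOB, TTR, FGB and FGA had 0 counts in both sets; the summed level was 138 to 149 CPM in the libraries labelled set 1, 11.1 to 12.6 CPM in set 2 and 16 to 18 CPM in the control, nearly all of it SERPINA1 in the libraries labelled set 1. Of 10 leukocyte markers 2 were tested and both were higher, with sums of 12.6 to 14 CPM in the libraries labelled set 1, 1.24 to 1.86 CPM in set 2 and 4.12 to 4.64 CPM in the control, and CD3E and AIF1 at 0 in both sets. Endothelial markers gave 3 higher and 1 lower of 5 tested among 9, with sums of 388 to 390 CPM in the libraries labelled set 1, 105 to 112 CPM in set 2 and 191 to 199 CPM in the control. Epithelial markers gave 2 higher and 1 lower of 3 tested among 10, with sums of 102 to 110 CPM in the libraries labelled set 1, 82.5 to 85.7 CPM in set 2 and 84.9 to 93.7 CPM in the control, and KRT5 and GRHL2 at 0. The part of other cell types in the differences was not tested. The 11 tested fibroblast markers of 13 gave 3 higher and 8 lower, with a median of −1.89.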

How the data were processed

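RNA-seq counts per gene, as the authors deposited them, were used for the 9 IMR90 libraries (3 labelled shTHBD set 1, 3 labelled shTHBD set 2 and 3 controls); Huh7 counts served only to check 1 library's identity. The submitters' processing notes name fastp, STAR and featureCounts and the build GRCh38. The version of featureCounts was 2.0.1 and the annotation GENCODE 38, per the file headers. The recorded command sets no strand option, so reads of overlapping antisense genes cannot be told apart. Not every overlap is named beside its gene. MCL1, TNFRSF10B, CCND1, SLC16A3, FGFR1, LOX, THBS1, ALDH1L2, MAP2K1, MAFF and JUNB also overlap tested genes on the opposite strand. So do DKK3, ITGA6, IRF1 and MACROH2A1. On the same strand, C1S overlaps EMG1 and FGF5 overlaps CFAP299. Genes outside the naming rule were not checked for overlaps.

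The 6 libraries of the sets were fitted with edgeR 4.0.16 (R 4.3.3): filterByExpr, TMM scaling, a quasi-likelihood test of set 1 minus set 2 without control libraries, Benjamini-Hochberg adjustment over all 14984 tested genes, and a call at an adjusted p of 0.05. CPM were computed on TMM-scaled totals of the 9 libraries. SE is the absolute log2 difference over the square root of F, an approximation that can be too small for genes of few counts. The steps were tested on simulated data with known changes. Alternatives were other scalings, DESeq2 1.42.0, limma 3.58.1 (voom), other filters, a fit of all 9 libraries, a replicate block and fits without each library in turn.

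The libraries compared, the gene lists and the markers were chosen with earlier results of these data known. Named genes were THBD, HRAS, CDKN1A, CDKN2A, CDKN2B and LMNB1. To these came the 10 largest differences in each direction among called genes with at least 10 CPM in the higher set and libraries that did not overlap. Clone-based and LINC names were left out of those 10. Up to 4 called genes per list under the same CPM and overlap conditions were added. The rule ended with the 6 largest differences in CPM in each direction. Some genes that this rule selects are not reported here. Other list members named in the text were chosen after their values were seen. Replicates of the same number correlated at 0.0086, 0.0631 and 0.0102 across sets. Those of unlike number ran from −0.043 to 0.0324. All these values are near 0 and cannot tell whether the numbers pair the libraries. Pairs of replicates had a chi-square per degree of freedom that ran from 2.00 to 2.28 in the libraries labelled set 1 and from 2.28 to 2.68 in set 2, above counting error alone. Promoter windows came from RefSeq tables on GRCh38.p14, and 10849 tested genes matched a window by symbol; gene types came from GENCODE 29 by name.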

Additional observations from a re-analysis of the deposited data

How the results depend on the processing

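The number of genes called between the sets was 10509, between 9870 (DESeq2 test) and 10821 (no filter on low counts) under the other tests, scalings and filters except a filter of at least 10 CPM in 3 libraries, which tested 9054 genes and called 7534. Under that filter, which removes low genes, 812 genes were at least 2-fold higher and 542 at least 2-fold lower in the libraries labelled set 1, against 1643 and 1492. The DESeq2 test called 9869 of the 10509 genes, each with the same sign. Leaving out 1 library at a time, 10182 to 10299 genes were called, 5127 to 5194 higher and 5040 to 5129 lower, with 1680 to 1726 at least 2-fold higher and 1551 to 1615 at least 2-fold lower; without set 2 replicate 3 the number was 10299. THBD ran from 1.88 to 1.95, the difference in mitochondrially encoded share from −0.485 to −0.405 percentage points, and the lists with a positive median from 34 to 35, against 33. The replicate block, added although it is not known whether the replicate numbers pair the libraries, called 10444 genes, 10406 of them shared.

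Upper-quartile scaling put HRAS at −0.00027, MT-ND4 at −0.0149 and CDKN1A at 0.02 (adjusted p = 0.386). Library totals, an alternative chosen after seeing the data, put HRAS at −0.0513, CDKN1A at −0.031 and MT-ND4 at −0.0659. No other gene selected by the naming rule changed direction or side of the threshold under the alternatives in which it was tested. Other list members given by value were not part of this check. Their small differences and failures to pass may depend on the processing. The medians of the IGF binding protein, NRF2 target, mitochondrially encoded and cholesterol lists changed sign under 1 or both of these scalings; those of CC chemokines, complement (0.02), prostaglandin genes (0.58) and actins, adhesion and cadherins (0.16) turned positive with the 10 CPM filter, and that of cell cycle inhibitors (−0.02) was between 0.01 and 0.02 without set 1 replicate 1, set 1 replicate 2 or set 2 replicate 1. The cause was not tested. Depth limits genes under about 1 CPM, whose few counts leave wide errors.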

Other observations

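Long non-coding RNAs leaned towards set 2. Of 631 tested genes typed as long non-coding, 98 were higher in the libraries labelled set 1 and 263 were lower, with a median log2 difference of −0.39; 56 were at least 2-fold higher and 181 at least 2-fold lower. Of 12501 protein-coding genes 4831 were higher and 4423 lower (median 0.02), and of 380 pseudogenes 69 were higher and 95 lower (median −0.08). Among long non-coding RNAs of at least 10 CPM in 1 set, the largest difference downward was in ADIRF-AS1, with 2.29, 2.45 and 2.31 CPM in the libraries labelled set 1, against 15.4, 16.4 and 15.8 CPM in set 2, with 2.06, 2.8 and 2.48 CPM in the control (log2 difference −2.73 ± 0.139, adjusted p = 5.7e-28; edgeR). LINC00205 was more abundant, with 27.4, 27.4 and 26.7 CPM in the libraries labelled set 1, against 87.6, 95.5 and 96.6 CPM in set 2, with 51.1, 50.5 and 51.9 CPM in the control (log2 difference −1.76 ± 0.0548, adjusted p = 2.9e-40). SNHG18 (−1.60 ± 0.0877) and CCDC18-AS1 (−1.82 ± 0.116) were lower too. In the other direction LINC02392 (2.32 ± 0.139), LINC01001 (1.96 ± 0.155) and LUCAT1 (1.94 ± 0.112) were higher, and SNHG16, a host gene of small nucleolar RNAs, had 91.7, 99.5 and 104 CPM in the libraries labelled set 1, against 41.4, 43 and 41 CPM in set 2, with 76.1, 70.4 and 77.3 CPM in the control (log2 difference 1.25 ± 0.0503, adjusted p = 8.9e-34). Reads from overlapping exons of antisense genes and their partners cannot be told apart in these counts, which use no strand. How such reads were assigned was not tested, and 1411 tested genes could not be typed by name. These genes were chosen after their values were seen.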
